A study of Mus musculus with 10 samples.

Results

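The regions described here are 1000 H3K4me3 peaks of Delta cells on which H3K27me3 was called in Delta and not in WT. They were taken from the 15412 H3K4me3 peaks of the Delta list, out of 70826 peaks in 8 lists. A peak was selected on these calls when it shared at least 1 bp with both a Delta H3K27me3 peak and a WT H3K4me3 peak, and none with a WT H3K27me3 peak. They are called Delta-only bivalent peaks below, bivalent meaning that both H3K4me3 and H3K27me3 were called. Because both marks chose the regions, their H3K4me3 and H3K27me3 values are given as a description and were not tested.

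ChIP-Rx, a ChIP-seq with *Drosophila* S2 cells added as an outside reference, was performed on mCherry-positive cells sorted from mouse embryoid bodies (EBs) at day 4. WT cells carried Scl:mCherry, a heterozygous reporter insertion in J1 embryonic stem cells, with SCL functional. Delta cells carried Scl Δ/Δ:mCherry (Scl d/d in the labels), made from that line, in which both alleles lack SCL's basic helix-loop-helix region. SCL (TAL1) is a transcription factor that blood specification requires. Both groups were hence of 1 derived line each, were sorted for the same reporter at the same stage, and the labels name a C57Bl/6 X Sv129 background in 3 samples and the same text with other last numbers, up to 136, in the rest. Each mark was profiled by 1 library in each genotype, so the differences below have no replicate check, and genotype cannot be told apart from library. All intervals are 95% intervals of counting error only.

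H3K4me3 is laid down at the starts of active and poised genes. H3K27me3 is written by Polycomb repressive complex 2 and H2AK119ub by Polycomb repressive complex 1, and both are known for silencing developmental genes. H3K27ac marks active promoters and enhancers, and a histone H3 tail cannot carry acetyl and trimethyl groups on the same lysine 27. Bivalent promoters in stem cells and early mesoderm often belong to lineage regulators, and most lie in CpG islands.

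Stretches from the bases under both H3K4me3 and Delta H3K27me3 are printed to show what DNA the calls covered. They come from the mm9 reference, on the plus strand, with CG dinucleotides in capitals, and leave out untranslated exons. *Klf1* (chr8:87426830-87427029) and *Esam* (chr9:37338135-37338334) stand for the blood and endothelial genes with such a peak. *Jarid2* (chr13:44825641-44825840) stands for Polycomb genes, *Smad1* (chr8:81922788-81922987) for BMP signalling, and *Ncoa2* (chr1:13364599-13364798) for the broadest H3K27me3 cover. *Gata2* (chr6:88150907-88151106), a blood regulator bivalent in both genotypes, is shown for comparison.
Klf1: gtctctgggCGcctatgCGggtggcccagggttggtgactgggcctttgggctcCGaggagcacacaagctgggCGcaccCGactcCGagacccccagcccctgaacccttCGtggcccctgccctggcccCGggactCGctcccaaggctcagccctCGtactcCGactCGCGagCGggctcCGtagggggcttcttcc
Esam: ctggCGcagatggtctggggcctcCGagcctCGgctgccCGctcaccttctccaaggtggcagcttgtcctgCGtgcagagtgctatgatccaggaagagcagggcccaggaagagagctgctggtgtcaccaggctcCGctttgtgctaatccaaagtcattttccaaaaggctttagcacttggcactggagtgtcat
Jarid2: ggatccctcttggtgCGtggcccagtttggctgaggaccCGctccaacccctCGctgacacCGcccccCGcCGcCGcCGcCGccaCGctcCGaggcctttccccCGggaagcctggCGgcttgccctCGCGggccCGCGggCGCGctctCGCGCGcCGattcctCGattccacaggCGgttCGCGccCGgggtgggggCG
Smad1: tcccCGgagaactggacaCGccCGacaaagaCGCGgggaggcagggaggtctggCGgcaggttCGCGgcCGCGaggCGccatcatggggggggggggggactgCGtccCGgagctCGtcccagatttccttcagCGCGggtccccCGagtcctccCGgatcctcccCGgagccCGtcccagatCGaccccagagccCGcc
Ncoa2: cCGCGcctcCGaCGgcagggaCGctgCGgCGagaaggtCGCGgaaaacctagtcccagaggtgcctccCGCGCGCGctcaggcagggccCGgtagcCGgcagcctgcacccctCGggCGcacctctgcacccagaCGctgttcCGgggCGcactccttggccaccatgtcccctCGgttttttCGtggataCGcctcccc
Gata2: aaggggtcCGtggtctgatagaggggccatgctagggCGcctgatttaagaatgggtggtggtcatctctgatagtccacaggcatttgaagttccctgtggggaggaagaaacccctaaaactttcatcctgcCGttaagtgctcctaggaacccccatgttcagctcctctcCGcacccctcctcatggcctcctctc

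These 200-base stretches held 15 CG in *Klf1*, 6 in *Esam*, 29 in *Jarid2*, 22 in *Smad1*, 23 in *Ncoa2* and 4 in *Gata2*. *Gata2* does not stand for its class, since such stretches of *Myb* and *Tal1*, also bivalent in both, held 18 and 9. The *Esam* stretch also holds CAGATG, one of the E-box sequences to which SCL and its partners can bind. Over whole H3K4me3 peaks, the median GC content was 58.5% in the 1000 Delta-only bivalent peaks, 62.5% in the 6157 peaks bivalent in both genotypes, 57.1% in the 1487 peaks with H3K27me3 in WT only, and 56.5% in the 6156 peaks with H3K27me3 in neither. The median ratio of observed to expected CpG was 0.72, 0.74, 0.71 and 0.64 in the same order. Peaks that had H3K27me3 in 1 genotype thus lay near the bivalent peaks in CpG, and above the peaks never called for H3K27me3. No value of these sequences was used by the rule. Windows of 300 bp around the middle of each peak were searched for 4 motifs on both strands. CAGATG was in 9.7% of the Delta-only bivalent windows and 11.9% of all 15412 windows. CAGCTG, another E-box, was in 14.3% and 16.4%. AGATAA was in 4.6% of the Delta-only bivalent windows and 4.93% of all windows. TGATAA was in 3.2% and 3.22%, and both are sequences that blood factors of the GATA family can bind.

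The label of the sorted cells was checked against marker genes. H3K4me3 lay within 2500 bp of a transcription start site (TSS) of 10 of 10 blood-fated mesoderm markers in WT and 8 of 10 in Delta, where *Cdh5* and *Tek* had none. It also lay at 6 of 8 markers of other cells in WT and 7 of 8 in Delta. H3K27ac was called at 4 of the 10 blood-fated markers in WT (*Tal1*, *Lmo2*, *Fli1*, *Gata2*), at 1 in Delta (*Runx1*) and at 0 of the 8 others in both. A change in the make-up of the sorted cells and a change within cells cannot be told apart in these bulk lists.

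The call of H3K27me3 went in both directions. Of 7156 shared H3K4me3 peaks without WT H3K27me3, 1000 were called for it in Delta, the 14.0% that form the set. Of 7644 shared peaks with WT H3K27me3, 1487 (19.5%) were not called for it in Delta. As an alternative, a −log10 q of at least 3 was required in both H3K27me3 lists and in the WT H3K4me3 list. This gave 850 regions (9.57%), and 19.3% of shared peaks with WT H3K27me3 were not called in Delta. Weaker WT H3K27me3 then no longer barred a region, so the 850 are not a subset of the 1000. With the threshold on Delta H3K27me3 alone, 387 regions were called (5.41%). Calls that appeared in Delta were fewer than calls that disappeared, and the name of the set refers to list membership and not to a measured level.

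The H3K27me3 peaks on the Delta-only bivalent regions were short. Their median length was 462 bp (quartiles 311 and 835), against 3189 bp (1156 and 6094) for the Delta H3K27me3 peaks on regions bivalent in both genotypes. H3K27me3 peaks under 1000 bp lay on 810 of the 1000 regions (81.0%, Wilson interval 78.5 to 83.3) and on 1361 of the 6157 (22.1%, 21.1 to 23.2). The WT peaks on the 1487 regions that went the other way had the same share under 1000 bp, 81.0% (79.0 to 82.9), with a median of 487 bp. The short H3K27me3 call was hence shared by the Delta-only and the WT-only regions.

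**Figure D1:**
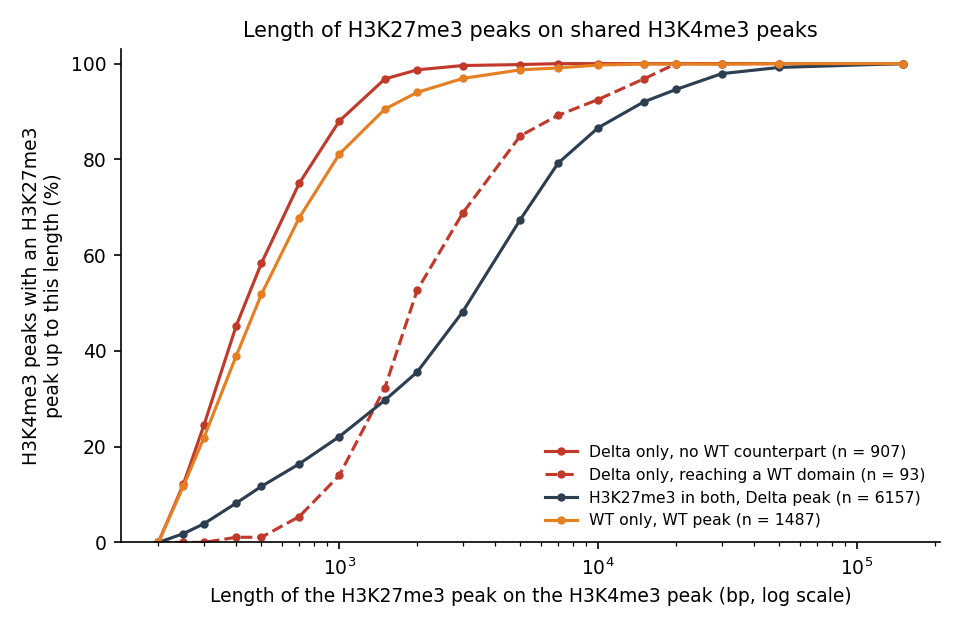
Cumulative share of H3K4me3 peaks (vertical axis, %) against the length of the longest H3K27me3 peak on them (horizontal axis, bp, log scale). Solid red is Delta-only peaks without a WT counterpart (n = 907) and dashed red those that reach a WT domain (n = 93); dark blue is bivalent in both (n = 6157) and orange WT-only, measured in WT (n = 1487). The solid red and orange curves rise early and run close together, while the dark blue curve lies far to the right, with medians of 426, 487 and 3189 bp.

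They were also weak within their own list. The fold enrichment over the local background, as deposited, had a median of 3.48 on Delta-only bivalent regions and 4.97 on regions bivalent in both. The median −log10 q was 2.69 and 6.80. A −log10 q of at least 3 was reached on 387 of 1000 regions (38.7%), 81.7% of those bivalent in both, and 35.1% of the WT-only regions in the WT list. Delta H3K27me3 covered a median of 389 bp of each region, with a range of 2 to 1823 bp. The H3K27me3 peak lay wholly inside the H3K4me3 peak in 745 regions (74.5%), against 22.0% of those bivalent in both. Conversely, 33 regions (3.3%) were covered whole, against 57.4%. A typical member was thus a small H3K27me3 call within a wide H3K4me3 peak.

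H3K4me3 on these regions was long and strong. The Delta H3K4me3 peak had a median length of 1584 bp, against 1197 bp when bivalent in both, 1618 bp when WT-only and 1134 bp when H3K27me3 was called in neither. Its median fold enrichment was 7.70, against 5.50, 7.11 and 6.06. In WT the fold enrichment of the matching peak had a median of 8.17, against 5.84, 8.87 and 6.65. The summed length of the WT H3K4me3 peaks on a region exceeded the Delta peak in 67.9% of the regions and in 64.6% of all 14800 shared peaks. A WT peak that is broken in Delta is set whole against each piece. The measure favours WT for this reason, and no shortening in Delta is read from it.

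Most calls had no neighbour in WT. The Delta H3K27me3 peak overlapped no WT H3K27me3 peak anywhere along its length in 907 regions (90.7%, 88.7 to 92.3). The median distance from the region to the nearest WT H3K27me3 peak was 43979 bp, near the 45514 bp of peaks with H3K27me3 in neither. In the other 93 (9.3%, 7.65 to 11.3), the Delta peak reached a WT H3K27me3 domain that stopped short of the H3K4me3 peak, at a median distance of 192 bp. The H3K27me3 peak of these 93 had a median length of 1936 bp, against 426 bp in the 907. The share was similar in the other direction. In 123 of the 1487 WT-only regions (8.27%, 6.98 to 9.78), the WT H3K27me3 peak overlapped a Delta H3K27me3 peak. In 32 of the 1000 Delta-only bivalent regions (3.2%), the WT H3K4me3 peak was itself overlapped by WT H3K27me3 at bases outside the Delta H3K4me3 peak. That WT H3K4me3 peak was thus bivalent as well. At the edge of the rule, the least overlap was 2 bp, in a region without a TSS in reach whose nearest gene, *Olfr466*, started 23868 bp away. Just outside it, a region near *Cxcr7* was left out for 3 bp of WT H3K27me3, and a region near *Tram2* abutted a Delta H3K27me3 peak with 0 bp shared.

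H3K27ac, which the rule did not use, was common on the Delta-only bivalent regions. It was called on 444 of 1000 in WT (44.4%, 41.3 to 47.5), where the background over all Delta H3K4me3 peaks was 25.6%. In Delta it was called on 561 (56.1%, 53.0 to 59.1), against a background of 29.7%. Regions bivalent in both had H3K27ac in 19.4% in WT and 21.6% in Delta. The difference from them was 25 percentage points in WT (Newcombe interval 21.8 to 28.2) and 34.5 in Delta (31.2 to 37.7). Regions without H3K27me3 in either genotype were also lower, with 24.4% and 30.5%, by 20 (16.7 to 23.2) and 25.6 points (22.3 to 28.9). WT-only regions had H3K27ac in 53.2% in Delta, and the difference of 2.91 points had an interval of -1.09 to 6.87. In WT they had it in 52.8%, and the Delta-only regions differed from them by -8.39 points (-12.4 to -4.39). The excess depended on how overlap was set. When each overlap had to cover at least 50% of the H3K4me3 peak, 450 regions were selected. WT H3K27me3 below that cover no longer barred a region, so the 450 are not a subset of the 1000. A WT H3K27me3 domain was reached by 71.6% of the 450, against 9.3% of the 1000. H3K27ac was called on 22.9% of the 450 in WT and 29.3% in Delta, near the background.

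**Figure D2:**
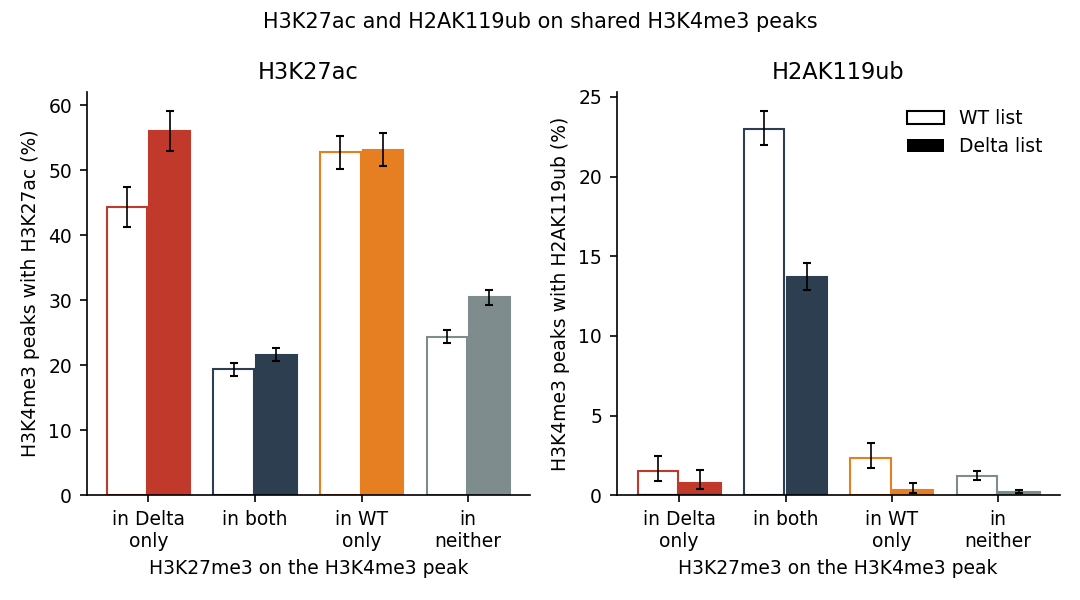
Share of shared H3K4me3 peaks (vertical axes, %) with H3K27ac (left) or H2AK119ub (right) by where H3K27me3 was called (n = 1000 in Delta only, 6157 in both, 1487 in WT only, 6156 in neither). Open bars are the WT list, filled bars the Delta list, and error bars are 95% Wilson intervals. H3K27ac is most frequent on the peaks called for H3K27me3 in 1 genotype, and H2AK119ub on those called in both.

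H3K27ac changed between the lists on part of these regions. It was called in both genotypes on 395, in Delta only on 166 (16.6%, background 8.69%) and in WT only on 49 (4.9%, background 4.55%). Of the 556 regions without WT H3K27ac, 166 (29.9%) had it in Delta, against 5.28% of regions bivalent in both, 20.5% of WT-only regions and 16.1% of regions without H3K27me3. Of the 444 with WT H3K27ac, 49 (11.0%) had none in Delta, against 10.6%, 17.6% and 25.2%. On these regions H3K27ac thus appeared in more cases than it disappeared. In 538 of the 561 regions with H3K27ac in Delta (95.9%), the H3K27me3 and H3K27ac peaks shared bases, as in 94.1% of those bivalent in both. Whether both marks sat on the same molecules, cells or alleles was not tested.

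Longer H3K4me3 peaks carry H3K27ac more often, so the shares were taken again by length. In peaks of 1500 bp up to but not including 2000 bp, H3K27ac was called in Delta on 173 of 240 Delta-only bivalent regions (72.1%, 66.1 to 77.4), 31.8% of those bivalent in both (28.9 to 34.9), 62.5% of WT-only regions (57.5 to 67.2) and 50.2% of those without H3K27me3 (47.2 to 53.2). In peaks of 2000 bp or more the shares were 80.9%, 61.7%, 79.7% and 68.7%. Below 1000 bp they were 13.4%, 0.891%, 11.8% and 11.5%. The excess over regions bivalent in both was present in each length class, and that over regions without H3K27me3 exceeded the intervals from 1000 bp upward. H3K27ac in WT was on 35.6% (30.1 to 41.6) of Delta-only bivalent regions from 1000 bp up to 1500 bp. Regions without H3K27me3 had 24.3% (22.4 to 26.3). From 1500 bp up to 2000 bp these shares were 57.5% (51.2 to 63.6) and 39.1% (36.2 to 42.1). At 2000 bp or more they were 65.8% (60.2 to 70.9) and 57.0% (53.4 to 60.6). Those intervals overlapped narrowly, and an interval of the difference was not computed there. Below 1000 bp the shares were 8.46% (5.35 to 13.1) and 9.07% (8.01 to 10.3).

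**Figure D3:**
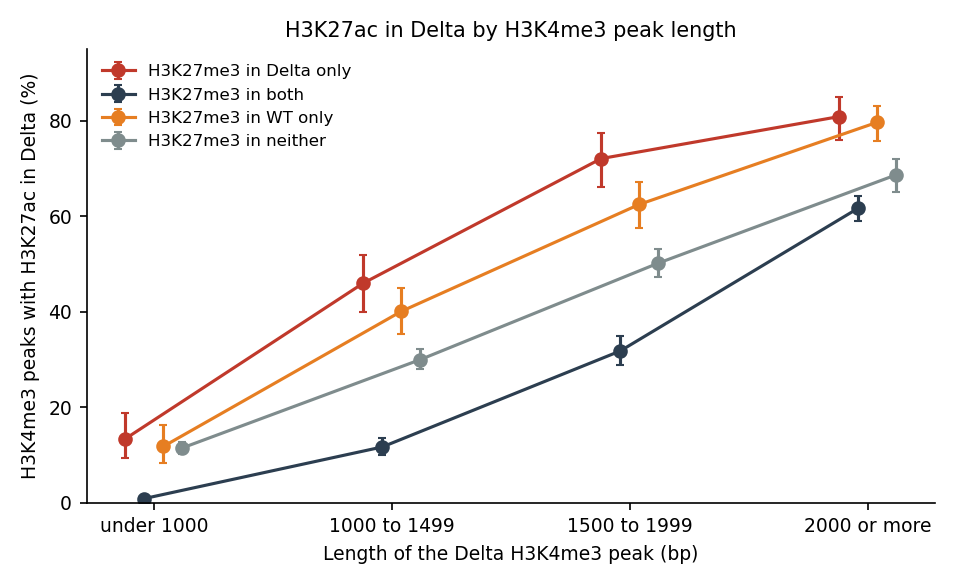
Share of shared H3K4me3 peaks with H3K27ac in Delta (vertical axis, %) in 4 classes of Delta H3K4me3 peak length (horizontal axis, bp). Colours give where H3K27me3 was called, points are shares and error bars 95% Wilson intervals. Peaks with H3K27me3 in Delta only (red) lie above those with it in both (dark blue) in each class, with 72.1% against 31.8% in the class that begins at 1500 bp.

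H2AK119ub was rare on the Delta-only bivalent regions. It was called on 15 in WT (1.5%, 0.911 to 2.46), with a background of 10.6% over all Delta H3K4me3 peaks, and on 8 in Delta (0.8%, 0.406 to 1.57), with a background of 6.05%. Regions bivalent in both carried it in 23.0% in WT and 13.7% in Delta, so that the Delta-only regions differed from them by -21.5 points (-22.7 to -20.1) and -12.9 points (-13.9 to -11.8). Regions without H3K27me3 had it in 1.22% and 0.211%, and the differences from the Delta-only regions were 0.282 points (-0.382 to 1.27) and 0.589 points (0.167 to 1.36). H2AK119ub was called in Delta only on 4 regions (0.4%, background 1.79%), among them *Lrrn4* and *Lyl1*. In WT only it was called on 11 (1.1%, background 6.29%). Without chromosomes 1 and 8 the Delta share was 0.342%. On the 450 regions selected with 50% cover, most of which reached a WT domain, the shares were 7.33% in WT and 3.33% in Delta.

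The 93 regions that reach a WT domain had less H3K27ac than the other 907. H3K27ac was called on 9 of 93 in WT (9.68%) and 9 in Delta (9.68%), against 435 (48.0%) and 552 (60.9%) of the 907, differences of -38.3 points (-43.8 to -29.9) and -51.2 points (-56.7 to -42.8). H2AK119ub in Delta was called on 5 of 93 (5.38%) and 3 of 907 (0.331%), higher by 5.05 points (1.92 to 11.6). In WT it was called on 3 of 93 (3.23%) and 12 of 907 (1.32%), a difference of 1.9 points with an interval of -0.433 to 7.76. A TSS lay within 2500 bp in 72.0% and 95.7%. The 93 also had shorter Delta H3K4me3 peaks, with a median of 856 bp against 1640 bp, so H3K27ac was compared by length. Below 1000 bp it was called in Delta on 0 of 60 (upper Wilson limit 6.02%) and 27 of 141 (19.1%, 13.5 to 26.4). From 1000 bp up to 1500 bp it was on 3 of 18 (16.7%, 5.84 to 39.2) and 117 of 243 (48.1%, 41.9 to 54.4), and above that the 93 left 11 and 4 regions per class. Of the 907, 599 (66.0%) had H3K27ac in at least 1 genotype and 308 had none. The WT H3K4me3 peak was at least 2 times as long as the Delta peak in 15 of the 93 and 15 of the 907, which is a description, since the rule keeps Delta peaks that stop short of a WT domain.

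Most Delta-only bivalent regions were promoters. A TSS of a protein-coding gene lay within 2500 bp of 935 (93.5%, 91.8 to 94.9), against 82.1% of regions bivalent in both (11.4 points lower, 9.44 to 13.1), 92.9% of WT-only regions and 84.7% of those without H3K27me3. These TSSs belonged to 1066 genes, 7.91% of the 13477 genes with Delta H3K4me3 in reach, and 131 regions reached 2 or more genes. WT H3K27me3 was nevertheless within 2500 bp of a TSS of 128 of the 1066 genes, and 34 also had another peak bivalent in both.

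The part of the H3K4me3 peak under Delta H3K27me3 mostly sat just downstream of the TSS. The middle of this part lay at a median of +259 bp (quartiles +108 and +404). It was downstream in 787 of the 934 regions where it fell within 2500 bp of the nearest TSS (84.3%, 81.8 to 86.5). In regions bivalent in both, the median was +237 bp and 78.6% were downstream (77.4 to 79.7). WT-only regions, measured with WT H3K27me3, had a median of +274 bp. The part is cut at the edges of the H3K4me3 peak, so its position depends on that peak as well. The middle of H3K27ac in Delta lay at a median of +181 bp and that of H3K4me3 at +255 bp. Delta H3K27me3 covered the position +250 bp in 67.2% of the 935 regions and the TSS itself in 28.4%. In regions bivalent in both, it covered +300 bp in 85.2% and the TSS in 67.1%. The middle of the part under both marks fell in an intron in 54.0% of the Delta-only bivalent regions and 37.9% of those bivalent in both. In the Delta-only regions it fell in an untranslated exon in 18.8%, in a coding exon in 14.2% and between genes in 13.0%.

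**Figure D4:**
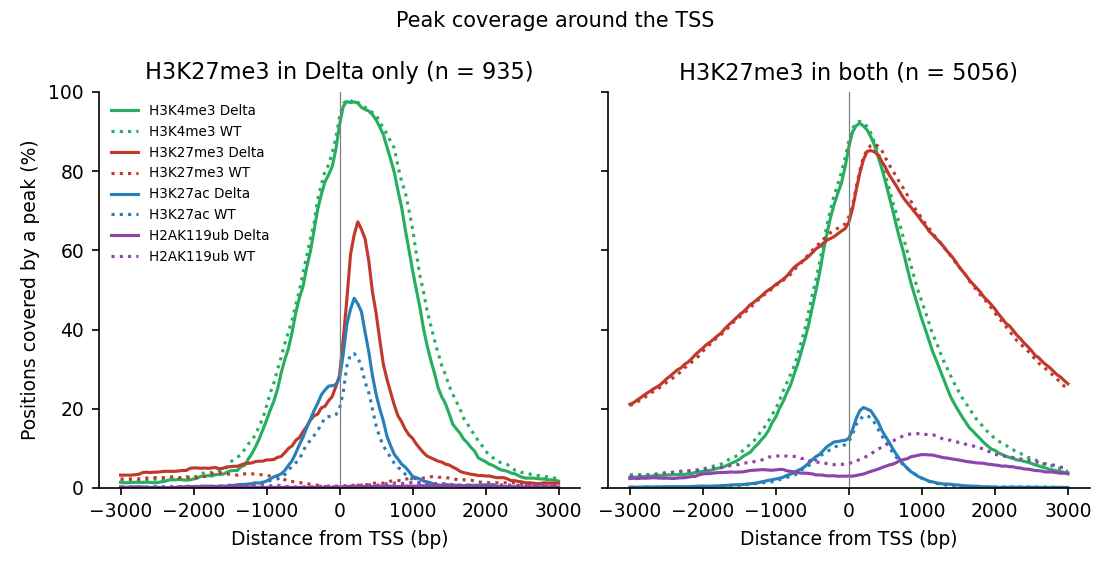
Share of positions covered by a peak (vertical axes, %) against distance from the TSS (horizontal axes, bp, positive downstream) for 935 Delta-only bivalent regions (left) and 5056 regions bivalent in both (right). Colours are marks, solid lines the Delta lists and dotted lines the WT lists. On the left, Delta H3K27me3 forms a narrow summit of 67.2% at +250 bp and WT H3K27me3 stays at or below 3.85%; on the right both genotypes have broad H3K27me3 with summits of 85.2% and 86.9%.

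The share of at-risk peaks, those shared and without WT H3K27me3, that were called in Delta differed by chromosome. It ranged from 9.68% on chromosome 19 to 20.3% on chromosome 16 among autosomes. On chromosome X, 7 of 344 were called (2.03%, 0.989 to 4.14), below each autosome, while 27 of 99 X peaks with WT H3K27me3 were not called in Delta (27.3%).

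Most genes of the lineage lists that had Delta H3K4me3 had a region bivalent in both genotypes, as did 5285 of all 13477 such genes (39.2%). Among blood genes with Delta H3K4me3, 2 of 20 had a Delta-only bivalent region (*Klf1*, *Lyl1*) and 15 a region bivalent in both. Among endothelial genes these were 2 of 20 (*Esam*, *Nrp1*) and 14. There were none among 17 cardiac, 21 paraxial mesoderm, 15 primitive streak and 23 neural genes, of which 15, 18, 11 and 22 had regions bivalent in both. The *Hox* genes, the regulators of body axis identity, had 0 of 32 and 30, the *Sox* genes 1 of 15 and 13, and the *Fox* genes 4 of 39 and 26. Polycomb genes had 3 of 29 (*Jarid2*, *Pcgf1*, *Yaf2*) and signalling genes 4 of 54 (*Acvr1*, *Fzd7*, *Smad1*, *Spry1*). Housekeeping genes had 2 of 20 (*B2m*, *Rplp0*). Across gene families, *Zfp* zinc finger genes had 29 of 307 (9.45%), *Slc* transporters 19 of 232 (8.19%) and *Ube* ubiquitin-conjugating genes 6 of 38. Against 7.91% of all genes with Delta H3K4me3, nothing particular to a list is read from these counts. In what follows, a value in brackets after a mark is its deposited fold enrichment, comparable within 1 list only.

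The blood gene *Lyl1* (ENSMUSG00000034041.4, chr8:87225356-87228614) encodes a basic helix-loop-helix factor closely related to SCL. Its region (chr8:87225342-87225894) was 553 bp of H3K4me3 in Delta, and the WT H3K4me3 peak on it was 2770 bp. Another Delta H3K4me3 peak of 469 bp, from 2614 to 3083 bp after the start of the gene, overlapped the same WT peak. Delta H3K27me3 was an 18494 bp peak with fold enrichment 7.32 that began 504 bp after the start of the gene, whereas the WT peak of 10064 bp began at 1043 bp. The overlap with the region was 35 bp in its untranslated exon. H3K27ac with fold enrichment 4.10 covered the start in WT, and none was called there in Delta. H2AK119ub began at 519 bp in Delta (3.74) and at 626 bp in WT, so the region itself met it in Delta alone by a small shift of its edge. The WT H3K4me3 peak, which ended at 2705 bp, overlapped the WT H3K27me3 peak. *Lyl1* thus had H3K4me3 in separate, shorter peaks, no H3K27ac call at its start, and H3K27me3 closer to its start in the Delta lists.

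*Klf1*, the gene of an erythroid Krüppel-like factor, had a region of 875 bp (chr8:87426493-87427367) within the gene. It was covered whole by a Delta H3K27me3 peak of 2228 bp with fold enrichment 3.95, and WT held a peak of 473 bp that ended 23 bp before the region. H3K4me3 ran from 61 to 1844 bp after the gene's start in WT and from 666 to 1541 bp in Delta. H2AK119ub was called on the region in both (3.02 in WT, 4.01 in Delta) and H3K27ac in neither. *Klf1* was therefore a widening of a H3K27me3 call already present in WT.

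*Esam*, the gene of an endothelial cell adhesion molecule, had a region of 1025 bp (chr9:37337958-37338982). WT H3K4me3 was 1 peak of 4058 bp from -675 to 3383 bp, and Delta had 2 peaks, of 462 and 1025 bp, in its place. Delta H3K27me3 spanned 5082 bp, from -2371 to 2711 bp, and WT H3K27me3 1424 bp, from -1512 to -88 bp. The gap in Delta H3K4me3 lay under Delta H3K27me3. *Nrp1*, a co-receptor for VEGF and semaphorins, differed from it: a 6958 bp H3K4me3 peak held an isolated H3K27me3 call of 758 bp (2.85), with H3K27ac in Delta alone (3.42) and WT H3K27me3 635166 bp away.

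**Figure D5:**
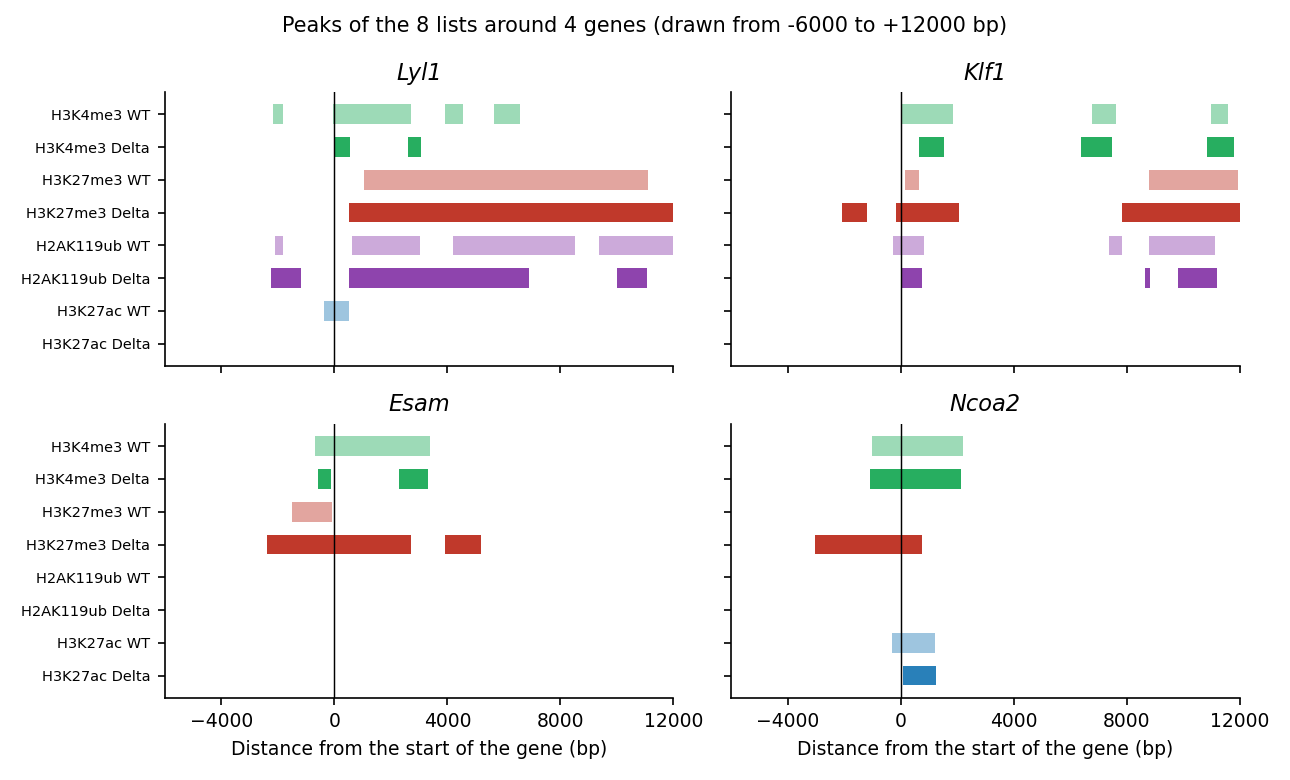
Peaks of the 8 lists (vertical axis, 1 row per mark and genotype, WT paler) around *Lyl1*, *Klf1*, *Esam* and *Ncoa2* against distance from the start of the gene (horizontal axis, bp, positive downstream). Bars are peaks at scale and are clipped at the panel edges. At *Lyl1*, *Klf1* and *Esam* Delta H3K27me3 extends a WT peak, and H3K4me3 is shorter or broken in Delta; at *Ncoa2* no WT H3K27me3 is drawn and H3K4me3 is 3216 bp in WT and 3219 bp in Delta.

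Among Polycomb genes, *Jarid2*, encoding a PRC2 cofactor, had an H3K27me3 call of 1133 bp (3.42) within 4687 bp of H3K4me3, with H3K27ac in WT (5) and Delta (4.78). *Pcgf1*, a ring finger subunit of variant PRC1, lay at the edge of a WT domain 355 bp away, with no H3K27ac. *Yaf2*, which encodes a relative of the PRC1 subunit RYBP, had 547 bp of H3K27me3 (3.28) and H3K27ac in Delta alone (3.83), and a WT H3K27me3 peak lay 334 bp away without being reached. In signalling, *Smad1*, the effector of BMP receptors, had 639 bp of H3K27me3 (3.0) with H3K27ac in both (3.15 in WT, 5.2 in Delta). *Acvr1*, a BMP type I receptor, and *Spry1*, a feedback inhibitor of FGF signalling, had calls of 314 bp (3.30) and 417 bp (3.69) and no H3K27ac. *Fzd7*, a Wnt receptor, had 608 bp (2.94) and carried H2AK119ub and H3K27ac in both genotypes. Of the housekeeping genes, *B2m*, the light chain gene of MHC class I, had 798 bp (3.0) and no H3K27ac, and the ribosomal protein gene *Rplp0* had 437 bp (3.72) with H3K27ac in both. Of these 13 list genes, 4 (*Lyl1*, *Klf1*, *Esam*, *Pcgf1*) reached a WT domain.

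The 8 regions with the most bases under Delta H3K27me3 lay away from WT domains, and 0 of them reached one. The first was *Ncoa2*, a nuclear receptor coactivator, with 1823 bp of its 3219 bp peak (chr1:13362014-13365232) under a 3798 bp H3K27me3 peak (3.55), H3K27ac in WT (3.75) and Delta (4.61), and WT H3K27me3 119411 bp away. *Pou2f1*, encoding the POU-domain factor OCT1, had 1733 bp covered and H3K27ac in both (3.44 and 4.81). The promoters shared by *Phb2* and *Emg1* and by *Brp44* and *Dcaf6* had 1703 and 1699 bp covered. *Zfp777* had 1630 bp covered with H3K27ac in WT alone (3.92), and *Tspan18* and *Rnd2* had 1621 and 1565 bp covered with no H3K27ac.

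By fold enrichment of H3K27me3, 7 of the 8 highest regions reached a WT domain. *Erich1* led with a 10014 bp peak of fold enrichment 10.53, 732 bp of it on the region and the WT domain 134 bp away. *Zpbp2* (7.91) and *Rasgrp2*, which encodes an activator of Rap GTPases (7.82), followed, and at *Rasgrp2* the H3K4me3 peak was 449 bp in Delta and 3135 bp in WT. *Coasy*, the coenzyme A synthase gene, had 7.79, *Lyl1* 7.32, *Trim7* 7.26, and the start shared by *Sympk* and *Foxa3* 5.77. The exception was *Mtch1*, with an isolated 283 bp peak of 5.70 and H3K27ac in both genotypes. These values belong to the whole H3K27me3 peak, most of which lay outside the region in the 7 that reached a WT domain.

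The 49 regions with H3K27ac in WT alone combined the loss of H3K27ac from the list with the new H3K27me3 call. Their share of 4.9% was near the 4.55% of all Delta H3K4me3 peaks. It was 6.17% in peaks with H3K27me3 in neither. The strongest WT H3K27ac among the 49 was at *Ppp2r5c*, a regulatory subunit gene of protein phosphatase 2A (5.22), with WT H3K27me3 942 bp away. *Ssrp1*, a subunit gene of the histone chaperone FACT, was next (5.21). *BC013529* (5.14), *Lipt2* (5), *Ubp1* (4.69), *Aimp1* (4.62), *Cuta* (4.54) and the translation factor gene *Eif3c* (4.49) followed. The Delta H3K27me3 peaks of these 8 ran from 251 to 949 bp, with fold enrichment from 2.89 to 3.98, and none reached a WT domain. *Lyl1* was among the 49 but below these 8.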

How the data were processed

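Peak lists of 8 ChIP-Rx libraries (4 marks, 2 genotypes, 1 library each) were analysed, and the 2 inputs were not analysed here. Per the study's methods, the authors mapped reads to mm9 and dm3 with Bowtie, removed duplicates and called broad peaks with MACS2 2.0.10 against the respective input. One list was deposited per library, and the spike-in scaling is described for tag densities and not for peak calls. The deposited columns are a score, which was not used, a fold enrichment (a ratio over the local background) and the −log10 of p and q. They were compared within a list only, and the authors' q cutoff removes weaker sites. Peak lists hold no numbers of reads, and library read totals were left unused.

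Members and gene lists were chosen with earlier results of these data known. Overlap meant at least 1 bp. Genes were those of GENCODE M1 on NCBIM37 (mm9), with coordinates 1-based, and a gene was in reach when a TSS lay within 2500 bp. Shares have Wilson and differences Newcombe 95% intervals, and neighbouring peaks are not independent. The genes named were, by rule, the 8 regions with most bases under Delta H3K27me3, the 8 with its highest fold, the 8 with H3K27ac in WT only and highest WT fold, up to 8 with H2AK119ub in Delta only, and list genes with a region. Some genes that these rules pick are not reported here, whatever their values, and the counts include them. Other genes were named after their values were seen, at the edges of the rule and in the closing section. Python 3.11.15, numpy 2.4.6, pandas 2.3.3 and statsmodels 0.14.6 were used. Overlap code was tested on 5000 simulated peaks, of which 0 were put in a wrong class, and bedtools 2.31.1 gave the same 1000 regions. Alternatives covered overlap, thresholds, distances, joining, list size, the WT list as frame and chromosomes.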

Additional observations from a re-analysis of the deposited data

How the results depend on the processing

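Of 114 values recomputed under 13 alternatives, 72 stayed within the interval of the reported share or within 1.5 times the reported count, and 42 did not. No paired analysis was possible because a mark had only 1 library in each genotype, and for the same reason no library could be left out. The cause of the shifts was not tested.

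With 50% of the H3K4me3 peak covered, a WT overlap below that cover no longer bars a region. There were then 450 regions and 444 genes, 4.59% of peaks called and 13.0% no longer called. H3K27ac was on 22.9% in WT and 29.3% in Delta, H2AK119ub on 7.33% and 3.33%, a TSS in reach of 88.2%, and a WT domain was reached by 71.6%. With a −log10 q of at least 3 for Delta H3K27me3 there were 387 regions and 410 genes, 5.41% called and 34.2% no longer called, H3K27ac on 48.1% and 59.9%, and 14.7% reaching a WT domain. With that threshold on all 3 lists, weaker WT H3K27me3 no longer barred a region. Then 9.57% were called, 4.82% reached a WT domain, 47.8% had WT H3K27ac and 2.47% WT H2AK119ub.

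Without WT H3K27me3 within 1000 bp, 12.9% were called and 20.9% no longer called, H3K27ac lay on 48.4% and 61.1%, a TSS was in reach of 95.8%, and 0.787% reached a WT domain. Within 3000 bp these were 12.9%, 22.8%, 48.9%, 61.9%, 96.0% and 0.116%, with Delta H2AK119ub on 0.349%. Joining H3K27me3 peaks gave 11.7% reaching a WT domain. Marks within 1000 bp gave WT H2AK119ub on 3.40%. Leaving out chromosomes 1 and 8 gave Delta H2AK119ub on 0.342%. Among the 907 regions without a WT counterpart, a setting added after seeing the data, Delta H2AK119ub was on 0.331%, H3K27ac on 48.0% and 60.9%, a TSS was in reach of 95.7%, and they were 12.8% of the peaks then counted. Equal numbers of top H3K27me3 peaks, the WT H3K4me3 list, a TSS distance of 1000 bp and leaving out chromosome X, the last also added afterwards, moved no value out of its limits.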

Other observations

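Further endothelial and signalling genes lay among the 93 regions that reach a WT H3K27me3 domain. They were chosen after their values were seen and are given as values only. *Clec14a*, encoding an endothelial surface lectin-like protein, had a region of 313 bp in Delta and 561 bp in WT, 168 bp from the WT domain, under a Delta H3K27me3 peak of 1939 bp (fold enrichment 4.08). *Gja4*, encoding a connexin of arterial endothelium, had 572 bp in Delta and 1155 bp in WT, 129 bp from the WT domain. *Stat5b*, a cytokine signal transducer, had 1304 bp covered whole by a 7054 bp Delta H3K27me3 peak (3.97), with 2306 bp of H3K4me3 in WT. None of these 3 carried H3K27ac or H2AK119ub in either genotype. *Hdac2*, a histone deacetylase gene, differed from them, with H3K27ac in WT (3.8) and in Delta (5.14).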
